A study of Drosophila melanogaster with 22 samples.

Results

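The Cdk8 module of Mediator has 4 subunits, and the comparison described here sets cells treated to deplete one pair of them, Med12 and Med13, directly against cells treated to deplete the other pair, Cdk8 and Cyclin C (CycC). All were S2 cells, a cultured Drosophila melanogaster line that resembles blood cells (haemocytes). They received 20 µg of double-stranded RNA (dsRNA), which directs destruction of the matching transcript, and were collected after 72 h for expression arrays. The arrays were chosen by their labelled dsRNA alone: 4 with Med12 dsRNA and 4 with Med13 dsRNA, against 2 with Cdk8 dsRNA and 4 with CycC dsRNA, which makes 14 of the 22 arrays of the study. The other 8 were controls with dsRNA against GFP or luciferase (Luc), 4 each, reporter genes that flies lack. The control means drop out of the comparison and are given beside it to show on which side of them each pair lay. Control arrays do enter the shared estimate of spread behind the p-values. The labels leave unstated whether replicate arrays stem from different cultures. The p-values below therefore reflect the variation among these arrays, and that variation may be technical.

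Mediator is the coactivator complex that links transcription factors to RNA polymerase II. Its detachable kinase module consists of the kinase Cdk8, its cyclin partner CycC, Med12, which in yeast and mammals joins the kinase to the rest of the module and stimulates it, and Med13, which in those species tethers the module to core Mediator. In flies kohtalo (kto) encodes Med12 and skuld (skd) encodes Med13, and in developing fly tissue loss of either of them is known to have effects that loss of Cdk8 or CycC does not share.

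The targeted transcripts were low under their own dsRNA for 3 of the 4 subunits. Under Med12 dsRNA, kto stood at 9.98% of the control mean, and under Med13 dsRNA, skd stood at 80.6%. Cdk8 stood at 14.4% under its own dsRNA and CycC at 3.56% under its own. The labels do not place the Med13 dsRNA on the skd transcript, so the skd probe sets cannot be set against the targeted part, and the depletion of Med13 could not be judged from them. Averaged over each pair, Cdk8 (1.50 ± 0.04 log2, SE) and CycC (2.50 ± 0.07) were higher and kto (-1.78 ± 0.06) was lower in Med12/Med13 cells, which is the depletion itself; these 3 genes are among the totals below. Transcripts of skd did not pass the test as a pair average (0.05 ± 0.05, adjusted p = 0.406), in which opposite differences from the Cdk8/CycC pair cancel: 0.34 for Med12 alone (adjusted p = 2.68e-05) and -0.24 for Med13 alone (adjusted p = 0.000966). Of 10 markers of plasmatocytes, the phagocytic haemocytes that S2 cells resemble, 9 lay over the floor of detection used here (log2 intensity 4, reached on 2 arrays or more). NimC1 was below it, as were the crystal cell genes lz and PPO2, the lamellocyte genes atilla and ItgaPS4, and every measured marker of muscle, fat body and gut. The crystal cell gene PPO1, the lamellocyte gene PPO3 and the neuronal gene elav were over it.

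The 2 pairs of depletions differed in many genes, mostly by small amounts. Of 5961 genes tested, 1602 were higher and 1326 lower in Med12/Med13 cells than in Cdk8/CycC cells, 49.1% of all genes in either direction (26.9% higher and 22.2% lower; limma, Benjamini-Hochberg adjusted p under 0.05). Most of these differences were small: the median size among the genes that differed was 0.21 on the log2 scale. A difference of at least 2-fold was found for 54 higher genes (0.906% of those tested) and 47 lower genes (0.788%), 1.69% together, and 16 genes reached 4-fold. For 1365 genes (22.9%) the 8 Med12/Med13 arrays did not overlap the 6 Cdk8/CycC arrays. All 4 single comparisons of a Med12 or Med13 group with a Cdk8 or CycC group passed in the same direction for 682 higher and 540 lower genes (20.5% together). These 1222 genes became 782 without the Cdk8 1 array.

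Within the pairs far fewer genes passed the test. Med12 and Med13 cells differed in 52 genes (0.872%), of which 13 (0.218%) were higher and 39 (0.654%) lower in Med12 cells. Cdk8 and CycC cells differed in 6 genes (0.101%), 4 (0.0671%) higher and 2 (0.0336%) lower in Cdk8 cells. Without adjustment, 290 genes had a limma p under 0.05 between Cdk8 and CycC cells and 660 between Med12 and Med13 cells, where 298 would be so by chance. The Cdk8 group has 2 arrays, which limits what that contrast can detect.

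Set against the mean of all controls, 1766 genes rose and 972 fell in Med12/Med13 cells (29.6% and 16.3%, together 45.9%), while 1065 rose and 749 fell in Cdk8/CycC cells (17.9% and 12.6%, together 30.4%). These counts share their control arrays. To place the pairs on either side of controls without sharing an array, Med12/Med13 cells were also compared with GFP controls and Cdk8/CycC cells with Luc controls, and then with the controls exchanged. In both assignments 187 genes that differed between the pairs (3.14% of those tested) were past the threshold on opposite sides of their controls. Of these, 117 were above controls in Med12/Med13 cells and below them in Cdk8/CycC cells (1.96%), and 70 lay the other way round (1.17%).

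**Figure D1:**
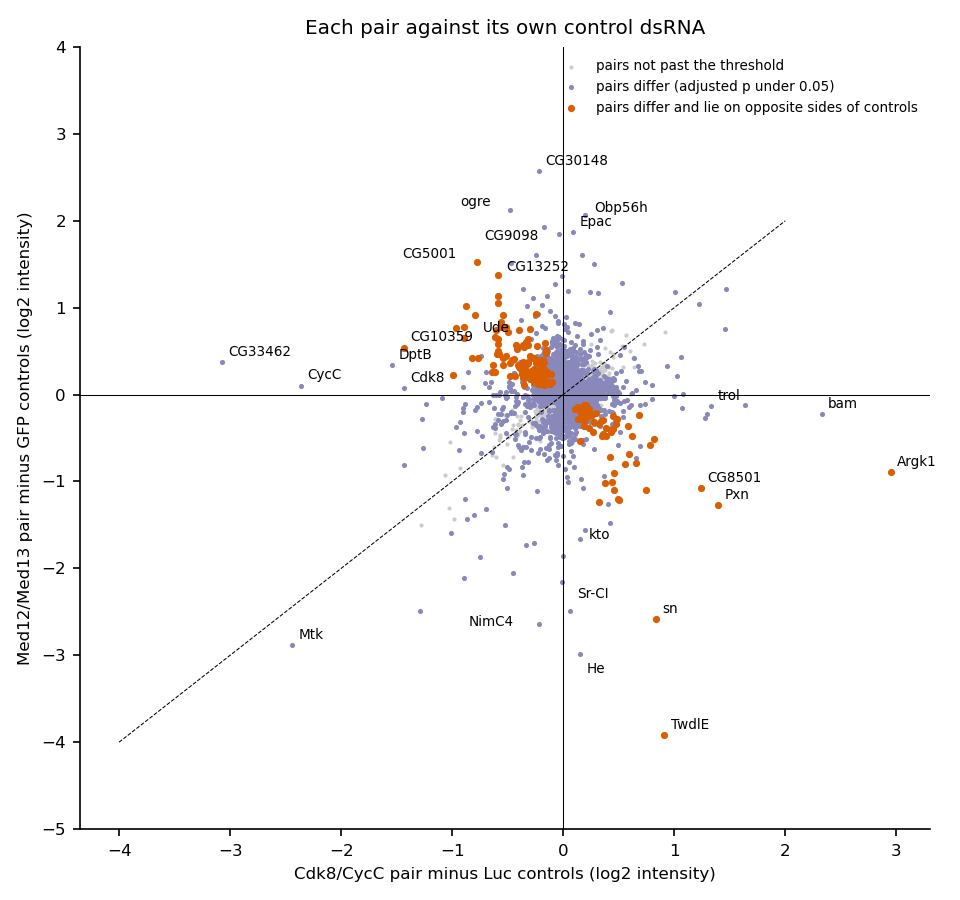
Each point is 1 of the 5961 genes, with the Med12/Med13 pair minus GFP controls on the vertical axis and the Cdk8/CycC pair minus Luc controls on the horizontal axis, both as log2 differences of group means; points on the dashed diagonal differ equally from controls in both pairs. The 187 orange genes lie in the upper left and lower right parts of the plot, on opposite sides of controls; CG33462 lies far left near the horizontal axis, while He and Sr-CI lie far down near the vertical axis.

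The deepest shortfall in Med12/Med13 cells was in TwdlE, followed by Argk1 and sn. TwdlE, of the Tweedle family of cuticle proteins, lay between 3.27 and 3.97 in Med12/Med13 cells (median 3.47), against 7.74 to 8.37 in Cdk8/CycC cells (median 8.05) and 6.72 to 7.74 in controls. Every Med12/Med13 array was under the floor, and no array of the 2 pairs came near one of the other. The difference was -4.53 ± 0.12 log2 (SE; adjusted p = 1.03e-16), or at least 16.7-fold when the Med12/Med13 cells are set to the floor. Argk1 encodes arginine kinase, which stores high-energy phosphate. It lay between 2.91 and 3.53 in Med12/Med13 cells (median 3.38), against 6.38 to 7.22 in Cdk8/CycC cells (median 7.04) and 3.67 to 4.69 in controls. All Med12/Med13 arrays were below every control and all Cdk8/CycC arrays above every control (difference -3.64 ± 0.15, at least 7.83-fold). Singed (sn), the fascin that bundles actin filaments, lay between 5.13 and 6.57 in Med12/Med13 cells (median 5.92), against 8.92 to 9.46 in Cdk8/CycC cells (median 9.27) and 8.25 to 8.66 in controls. It too was on opposite sides of controls, with a difference of -3.35 ± 0.14 (10.2-fold).

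Among the next genes by size, 3 encode haemocyte surface proteins. He, Hemese, a glycoprotein of the haemocyte surface, lay between 3.04 and 4.24 in Med12/Med13 cells (median 3.50), against 5.99 to 6.78 in Cdk8/CycC cells (median 6.07) and 5.53 to 6.74 in controls. NimC4, a receptor for engulfing dying cells, lay between 3.67 and 4.31 in Med12/Med13 cells (median 3.96), against 6.36 to 6.73 in Cdk8/CycC cells (median 6.51) and 6.46 to 6.90 in controls. Sr-CI, a scavenger receptor that binds bacteria, lay between 5.52 and 6.30 in Med12/Med13 cells (median 5.86), against 8.21 to 8.50 in Cdk8/CycC cells (median 8.40) and 8.24 to 8.45 in controls. In each the 8 Med12/Med13 arrays were separate from and below both the Cdk8/CycC and the control arrays, whose ranges overlapped each other. For He and NimC4 the Med12/Med13 values lay about the floor, where fold changes depend on the background correction. The differences between the pairs were -2.67 ± 0.17, -2.51 ± 0.10 and -2.47 ± 0.08 log2 in the same order (SE; adjusted p = 4.49e-11, 3.96e-14 and 1.01e-15).

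A different arrangement held for bam, a factor that starts germ cell differentiation. It lay between 2.95 and 3.49 in Med12/Med13 cells (median 3.28), against 5.20 to 6.01 in Cdk8/CycC cells (median 5.76) and 3.23 to 3.81 in controls, so Med12/Med13 cells and controls were all below the floor, and the signal was over it in Cdk8/CycC cells alone (difference -2.50 ± 0.10, at least 3.43-fold). Pxn, peroxidasin, an extracellular enzyme that crosslinks collagen IV, lay between 8.17 and 8.71 in Med12/Med13 cells (median 8.48), against 10.61 to 10.93 in Cdk8/CycC cells (median 10.83) and 9.26 to 9.92 in controls. Its 3 sets of arrays were fully separate, with controls in the middle (difference -2.30 ± 0.07, 4.92-fold). The remaining 4 of the 12 largest shortfalls were genes known by number, CG8501, CG5397, CG4250 and CG45263, with differences between -2.12 and -1.81.

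Among the 12 genes most in excess in Med12/Med13 cells, 8 are known by number or lack a role given here. CG33462 showed the widest gap, 9.88-fold, lying between 8.61 and 9.21 in Med12/Med13 cells (median 8.83), against 5.10 to 6.00 in Cdk8/CycC cells (median 5.58) and 8.34 to 8.73 in controls. Med12/Med13 cells were close to controls (log2 difference 0.30) and Cdk8/CycC cells stood at 12.5% of them, so the gap between the pairs (3.31 ± 0.10, adjusted p = 5.55e-16) lay mostly on the Cdk8/CycC side. CG30148 had the opposite arrangement. It lay between 7.67 and 8.54 in Med12/Med13 cells (median 8.21), against 5.46 to 5.93 in Cdk8/CycC cells (median 5.82) and 5.41 to 5.97 in controls, with Cdk8/CycC cells inside the range of controls and a gap of 2.45 ± 0.09. The innexin ogre, a gap junction channel protein, lay between 7.07 and 7.60 in Med12/Med13 cells (median 7.20), against 4.88 to 5.39 in Cdk8/CycC cells (median 5.07) and 5.04 to 5.94 in controls. Again the Cdk8/CycC and control ranges met while the Med12/Med13 arrays stood apart (difference 2.21 ± 0.11, 4.64-fold). Obp56h, of the odorant-binding protein family, followed that pattern with a difference of 1.93 ± 0.15.

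CG5001 lay on opposite sides of controls in the 2 pairs, between 6.08 and 6.42 in Med12/Med13 cells (median 6.27), against 3.68 to 4.56 in Cdk8/CycC cells (median 3.80) and 4.56 to 5.14 in controls (difference 2.30 ± 0.13). CG13252 (2.03 ± 0.06), CG10359 (1.78 ± 0.06) and Ude, a nuclease that degrades uracil-containing DNA (1.75 ± 0.10), did so as well. Fie (1.89 ± 0.08) and CG7702 (1.87 ± 0.11) were higher with no such split. CG9098 (1.82 ± 0.07, at least 1.80-fold) and mlt, a relative of a tubulin-folding cofactor (1.78 ± 0.11, at least 1.43-fold), were under the floor on every Cdk8/CycC and control array. In all, 42 genes reached the floor on fewer than 2 arrays of 1 pair only, and 13 of them are among the 101 with a 2-fold difference; those fold changes depend on the background correction. Among further genes on opposite sides of controls, CG5758 (1.73 ± 0.09) and numb, an inhibitor of Notch that is handed to 1 daughter cell at asymmetric divisions (1.51 ± 0.12), were higher, and CG7607 (-1.74 ± 0.06) was lower in Med12/Med13 cells.

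**Figure D2:**
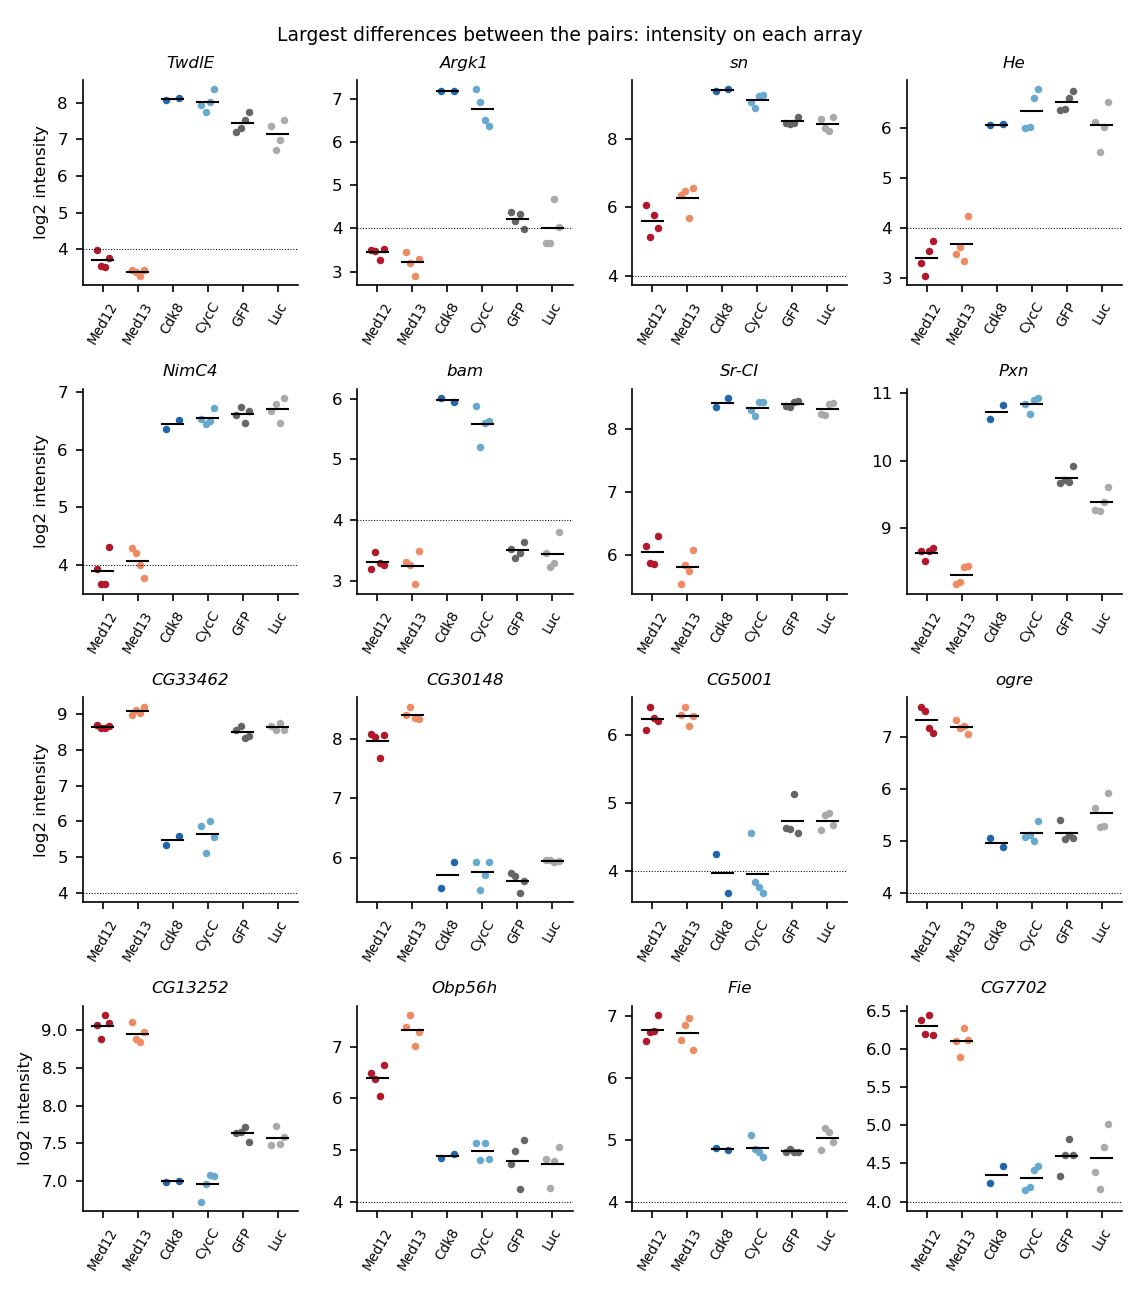
Log2 intensity on every array for the 8 largest shortfalls with a known product and the 8 largest excesses in Med12/Med13 cells; points are arrays, short lines group means and the dotted line the floor of 4. Controls sit with the Cdk8/CycC arrays for He, NimC4 and Sr-CI, with the Med12/Med13 arrays for bam and CG33462, and between the pairs for Pxn, CG5001 and CG13252.

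Immune genes were among those with large differences. Of 6 measured genes for antimicrobial and infection-induced peptides, 2 were higher and 1 was lower in Med12/Med13 cells (33.3% higher and 16.7% lower, against 26.9% and 22.2% of all genes; median 0.12 log2, against 0.01). DptB, a diptericin made against Gram-negative bacteria, lay between 10.72 and 11.09 in Med12/Med13 cells, against 8.96 to 9.34 in Cdk8/CycC cells and 10.33 to 10.69 in controls. The pairs did not overlap (difference 1.74 ± 0.07, 3.35-fold), and relative to controls the value was 0.27 in Med12/Med13 cells and -1.47 in Cdk8/CycC cells. The infection-induced peptide edin lay between 10.50 and 10.98 in Med12/Med13 cells, against 9.56 to 9.96 in Cdk8/CycC cells and 10.67 to 10.95 in controls. Med12/Med13 arrays overlapped controls and Cdk8/CycC arrays did not (pair difference 0.98 ± 0.06).

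Mtk, metchnikowin, an antifungal peptide, was low in both pairs. It lay between 3.60 and 5.30 in Med12/Med13 cells, against 4.79 to 5.52 in Cdk8/CycC cells and 7.38 to 7.90 in controls. The pairs overlapped, and the difference between them (-0.54 ± 0.17, adjusted p = 0.0131) was lost when Med12 alone stood for its pair (-0.23, adjusted p = 0.170). Drosomycin (Drs, 0.20 ± 0.09), the attacin AttD (0.04 ± 0.09) and the cecropin CecB (0.02 ± 0.04) did not pass the test. AttD was -0.97 from controls in Med12/Med13 cells and -1.01 in Cdk8/CycC cells.

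Upstream of these peptides, the Imd pathway senses bacterial peptidoglycan and ends in the NF-kappaB factor Relish (Rel). Of 13 measured genes, 9 were higher in Med12/Med13 cells and none lower (69.2% higher, against 26.9% of all genes; median 0.20). Transcripts of PGRP-LF, a receptor that holds the pathway back, lay between 9.99 and 10.17 in Med12/Med13 cells, against 9.10 to 9.25 in Cdk8/CycC cells and 9.56 to 9.78 in controls, 3 separate ranges with controls in the middle (difference 0.90 ± 0.04, adjusted p = 1.94e-14). PGRP-LA (0.81 ± 0.05), another membrane member of the family, was likewise on opposite sides of controls. PGRP-LB, an enzyme that destroys peptidoglycan (0.49 ± 0.05), and Rel itself (0.41 ± 0.03) were higher in Med12/Med13 cells, where they stood 0.63 and 0.30 above controls. In the Toll pathway, which answers to fungi and Gram-positive bacteria, 3 of 9 measured genes were higher and 2 lower (33.3% higher and 22.2% lower, against 26.9% and 22.2% of all genes). The lower count was 5 with arrays centred on their medians or quantile normalized, and 4 with the replicate block, with arrays weighted equally or with CycC alone. The protease grass (0.47 ± 0.05) and the receptor Tl (0.36 ± 0.07) were higher, and Pli (-0.28 ± 0.06), known to bind Pelle, and the ligand spz (-0.14 ± 0.03) were lower, calls that were lost with Med12 alone for Pli and with Med13 alone for spz.

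Melanisation genes were mixed. Of 7 measured, 4 were higher and 2 lower in Med12/Med13 cells (57.1% higher and 28.6% lower, against 26.9% and 22.2% of all genes; median 0.23). Sp7, a protease that activates prophenoloxidase, lay between 11.09 and 11.36 in Med12/Med13 cells, against 10.05 to 10.22 in Cdk8/CycC cells and 10.48 to 10.71 in controls (difference 1.15 ± 0.04, 2.22-fold). The 3 ranges did not meet. The serpins Spn77Ba (0.66 ± 0.06) and Spn27A (0.34 ± 0.03), which restrain the same cascade, were higher as well, and these 3 genes of the 7 were on opposite sides of controls, as were 3.14% of all genes. The crystal cell enzyme PPO1 lay between 5.63 and 6.28 in Med12/Med13 cells, against 6.63 to 7.18 in Cdk8/CycC cells and 6.11 to 6.89 in controls, and was lower (-0.92 ± 0.11), as was yellow-f (-0.26 ± 0.05), whose product converts dopachrome in melanin synthesis. PPO3, the lamellocyte enzyme, was higher (0.23 ± 0.05).

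**Figure D3:**
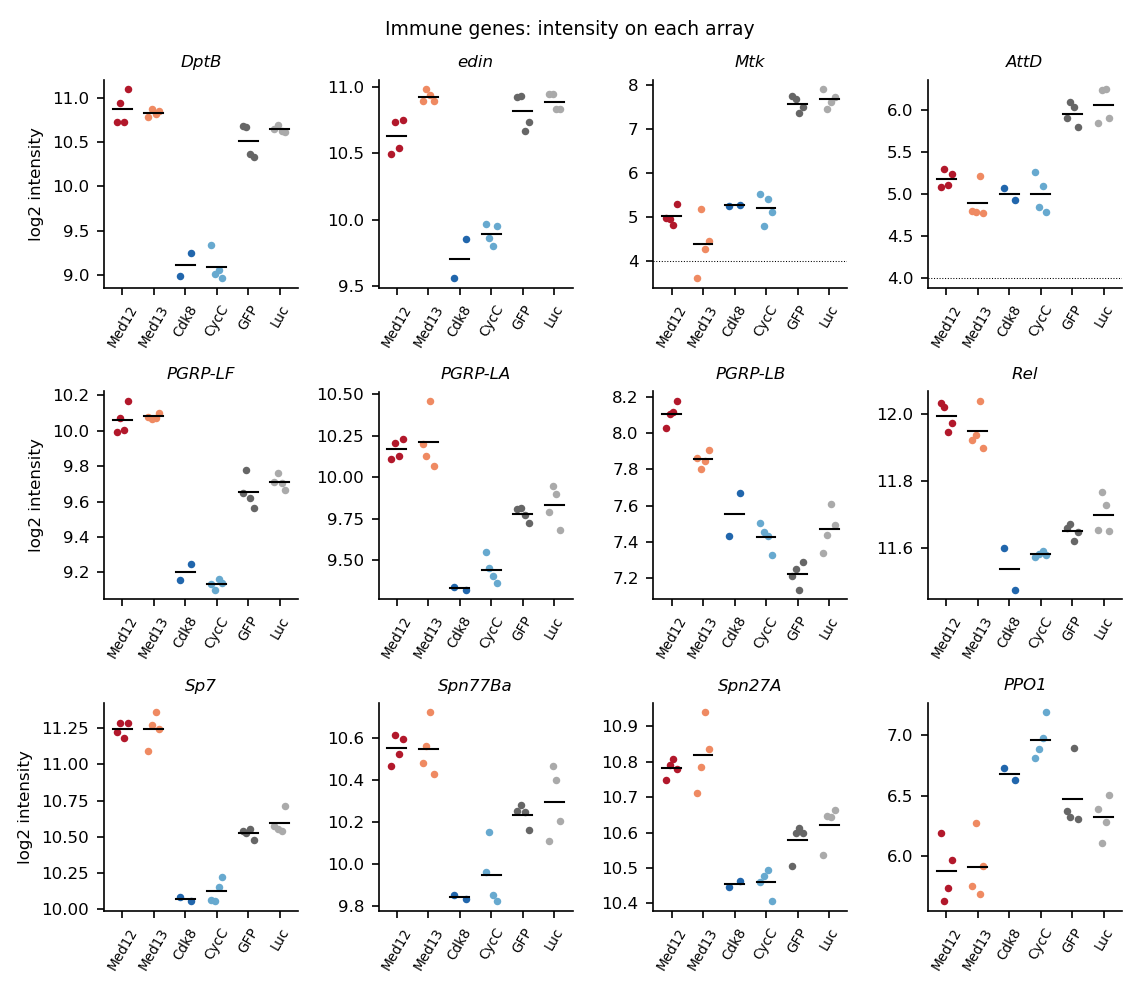
Log2 intensity on every array for 12 immune genes, with 1 point per array, short lines for group means and a dotted line at the floor where values come near it. DptB, edin, the 3 PGRP genes, Rel, Sp7 and the 2 serpins are higher on all Med12/Med13 arrays than on all Cdk8/CycC arrays, PPO1 is lower, and Mtk and AttD overlap between the pairs.

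Haemocyte surface receptors did not move as a block. Of 9 over the floor (12 were below it), 5 were lower and 3 higher in Med12/Med13 cells (33.3% higher and 55.6% lower, against 26.9% and 22.2% of all genes; median -0.30). Besides He, NimC4 and Sr-CI, the lower ones were the phagocytic receptor eater (-0.43 ± 0.04) and Dscam1 (-0.30 ± 0.06), an immunoglobulin superfamily receptor. The engulfment receptor drpr (0.28 ± 0.03), the thioester protein Tep4 (0.24 ± 0.04) and the clotting protein Hml (0.10 ± 0.04) were higher. The scavenger receptor crq did not pass the test (0.19 ± 0.08).

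Over the 9 plasmatocyte markers together, 6 were lower and 1 was higher in Med12/Med13 cells, against 22.2% and 26.9% of all genes. Their summed intensity per array was 64871 to 74002 in Med12/Med13 cells, 76337 to 80951 in Cdk8/CycC cells and 73610 to 80173 in controls. That sum is of linear intensities, so the brightest markers weigh most in it. Some of these markers are in the lists described here, and their part in the other results was not tested. In bulk samples, fewer cells of a type and less RNA per cell cannot be told apart. The neuronal marker elav, the single one of 7 measured over the floor, had intensities of 35.3 to 46.3 in Med12/Med13 cells, 24.0 to 37.7 in Cdk8/CycC cells and 26.6 to 38.1 in controls.

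Among factors that specify blood cells, ush, a partner of GATA factors, was lower in Med12/Med13 cells (-0.49 ± 0.05), on opposite sides of controls. The repressor zfh1 (-0.26 ± 0.05) and Ets21C, a stress-activated Ets factor (-0.27 ± 0.09), were also lower. The GATA genes pnr (0.13 ± 0.04) and GATAd (0.11 ± 0.03) were slightly higher, calls that were lost for pnr without the Cdk8 2 array (0.11) and for GATAd without the Cdk8 1 array (0.10). Serpent (srp), the main GATA factor of haemocytes, did not pass the test (-0.19 ± 0.08, adjusted p = 0.0557). Of 4 lamellocyte genes over the floor, 1 was higher and 2 lower (25% and 50%, against 26.9% and 22.2% of all genes). The lower ones included the kinase gene msn (-0.37 ± 0.04), and 1 was lower without the Cdk8 2 array.

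Basement membrane genes were mostly lower in Med12/Med13 cells. Haemocytes secrete this sheet of collagen IV, laminin and perlecan. Of 14 measured, 11 were lower and 1 higher (78.6% lower, against 22.2% of all genes; median -0.23). The proteoglycan perlecan (trol) lay between 6.05 and 6.54 in Med12/Med13 cells, against 7.67 to 7.89 in Cdk8/CycC cells and 6.18 to 6.58 in controls. Med12/Med13 arrays overlapped controls, while Cdk8/CycC arrays stood above both (difference -1.55 ± 0.07). Of the other 3 trol probe sets, 2 gave differences of -1.60 and -1.69 and the third 0.00. The third had means under the floor throughout (3.93 in each pair and 3.97 in controls). The set with -1.69 had a mean of 3.48 in Med12/Med13 cells, also under the floor. Besides Pxn, the integrin ligand Tig (-0.50 ± 0.04) and the collagen-modifying enzyme Plod (-0.37 ± 0.04) were lower. SPARC, which binds collagen IV, was the exception (0.27 ± 0.03, higher). In the same direction, 3 of 7 adhesion genes were lower (42.9% lower, against 22.2% of all genes), with mew, an integrin alpha subunit, at -0.90 ± 0.11. Fas1, an adhesion protein, stood far above controls in both pairs (1.20 in Med12/Med13 cells and 1.48 in Cdk8/CycC cells), and its small pair difference (-0.29 ± 0.09) was lost with Med12 alone (-0.08) and without the Cdk8 1 array (-0.22).

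Genes for PDGF/VEGF-like signals, which support haemocyte survival and migration, were lower in Med12/Med13 cells. The ligand Pvf1 lay between 10.25 and 10.55 in Med12/Med13 cells, against 11.19 to 11.43 in Cdk8/CycC cells and 10.67 to 10.87 in controls, on opposite sides of controls (difference -0.88 ± 0.04). Its relatives Pvf2 (-0.53 ± 0.06) and Pvf3 (-0.47 ± 0.07) and the receptor Pvr (-0.28 ± 0.03) were lower too. The FGF ligands bnl (-0.75 ± 0.13) and pyr (-0.43 ± 0.06) and the feedback inhibitor sty (-0.36 ± 0.09) were also lower. In contrast, the EGF ligand spi (0.51 ± 0.03), the kinase Dsor1 (0.23 ± 0.08) and the repressor aop (0.16 ± 0.04) were higher. This made 7 lower and 3 higher of 11 measured (27.3% higher and 63.6% lower, against 26.9% and 22.2% of all genes; median -0.36).

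DNA replication genes were lower in Med12/Med13 cells by small amounts. Of 34 measured, 27 were lower and 1 was higher (median -0.24, against 0.01 over all genes). That is 79.4% lower, against 22.2% of all genes. The licensing factor dup (Cdt1) lay between 10.59 and 10.81 in Med12/Med13 cells, against 11.09 to 11.16 in Cdk8/CycC cells and 10.56 to 10.70 in controls. Here it was the Cdk8/CycC arrays that stood apart, above all others (pair difference -0.46 ± 0.03, adjusted p = 3.09e-10). The helicase gene Mcm6 (-0.29 ± 0.03), the replication gene Mcm10 (-0.41 ± 0.04), thymidylate synthase (Ts, -0.44 ± 0.04), the large ribonucleotide reductase subunit RnrL (-0.28 ± 0.03) and Cyclin E (CycE, -0.64 ± 0.08) were lower as well. E2f2, a repressor of such genes, was the single higher one (0.13 ± 0.03). Relative to controls, 17 of the 34 rose and 0 fell in Med12/Med13 cells (median 0.11), against 29.6% and 16.3% of all genes (median 0.03). In Cdk8/CycC cells 30 rose and 1 fell (median 0.35), against 17.9% and 12.6% of all genes (median 0.01). Both pairs share the same controls.

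Of 17 mitotic regulators, 9 were lower and none higher (52.9% lower, against 22.2% of all genes; median -0.10), and 1 was higher without the Med13 3 array. The mitotic cyclins CycB (-0.24 ± 0.03) and CycB3 (-0.21 ± 0.03), the spindle motor ncd (-0.18 ± 0.03) and the APC activator fzy (-0.17 ± 0.03) were among them. Of 13 Polycomb group genes, which maintain gene silencing, 6 were lower and none higher (46.2% lower, against 22.2% of all genes), with Pcl at -0.34 ± 0.06 and Sfmbt at -0.22 ± 0.04. Of 6 germline genes over the floor 4 were lower and none higher (66.7% lower, against 22.2% of all genes), and 1 was higher without the Cdk8 2 or the Med12 1 array. Among the 4, bam reached the floor in Cdk8/CycC cells alone. The filter let it in through the pair where it is high, so its call adds no support to this count. The piRNA factor aub lay between 5.19 and 5.55 in Med12/Med13 cells, against 6.18 to 6.67 in Cdk8/CycC cells and 5.31 to 5.53 in controls, so that Med12/Med13 cells overlapped controls and Cdk8/CycC cells did not (difference -1.16 ± 0.07). The transcription factor ovo (-0.57 ± 0.08) was lower, and tud (-0.19 ± 0.07) was lower in a call lost under 12 alternatives, among them without the Cdk8 1 array (-0.15).

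**Figure D4:**
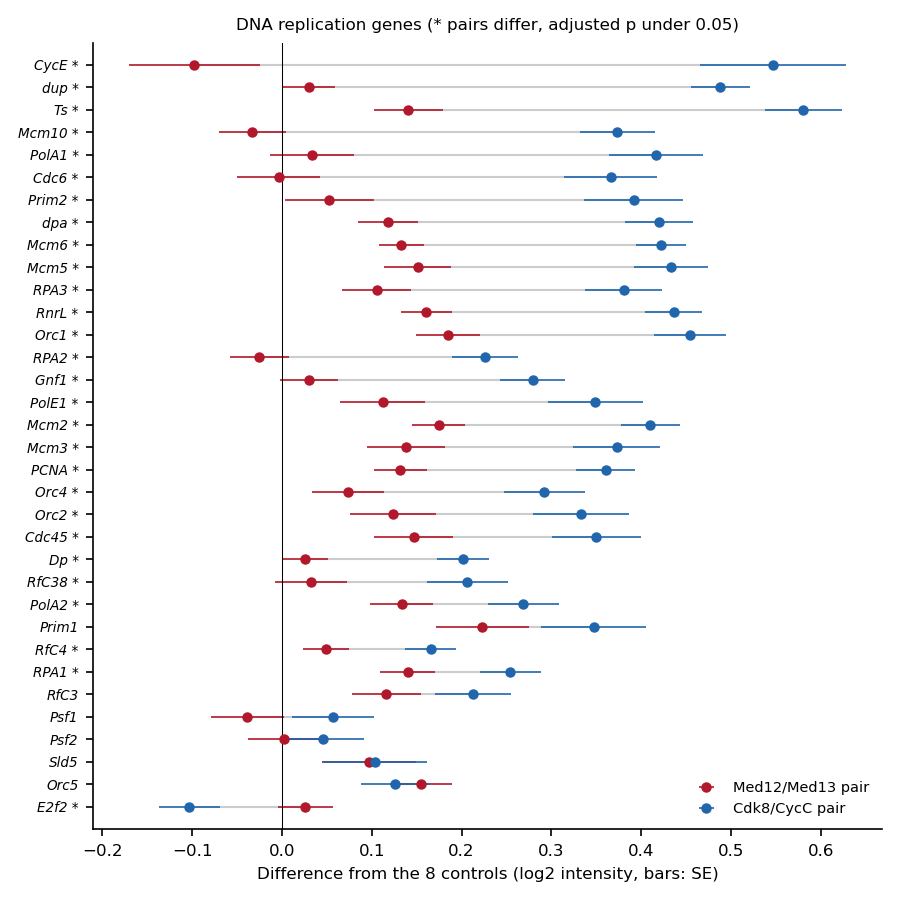
The 34 DNA replication genes, each with the difference of the Med12/Med13 pair and of the Cdk8/CycC pair from the 8 controls (log2 intensity, bars SE), and an asterisk on genes that differ between the pairs. Most Cdk8/CycC points lie to the right of the Med12/Med13 points; the medians are 0.11 for Med12/Med13 and 0.35 for Cdk8/CycC.

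Genes of the endoplasmic reticulum and the unfolded protein response were lower too. Of 19 measured, 16 were lower and 2 higher in Med12/Med13 cells (84.2% lower, against 22.2% of all genes; median -0.19). The stress-response protein Manf lay between 12.61 and 12.75 in Med12/Med13 cells, against 12.99 to 13.05 in Cdk8/CycC cells, with a control median of 12.93 (pair difference -0.33 ± 0.03). Sil1 (-0.33 ± 0.03), a chaperone cofactor, and Sec63 (-0.29 ± 0.03) and Sec61beta (-0.28 ± 0.03), parts of the protein import channel, were lower. Both exceptions were stress transcription factors, crc, the fly ATF4 (0.21 ± 0.03), and Atf6 (0.23 ± 0.05). Of 8 heat shock genes, 3 were lower and 2 higher (37.5% lower, against 22.2% of all genes). The small heat shock genes Hsp27 (-0.79 ± 0.05) and Hsp26 (-0.60 ± 0.11) had the largest differences named, and Hsp27 was on opposite sides of controls.

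Detoxification genes included large differences in both directions. Of 47 measured cytochrome P450 and glutathione transferase genes, 22 were higher and 10 lower in Med12/Med13 cells (46.8% higher and 21.3% lower, against 26.9% and 22.2% of all genes; median 0.11). The lower share is about that of all genes, and 51 others were below the floor. The glutathione transferase GstE2 lay between 12.36 and 12.62 in Med12/Med13 cells, against 10.88 to 11.08 in Cdk8/CycC cells, and every control lay between the pairs (control median 11.83, difference 1.48 ± 0.04, adjusted p = 5.41e-17). Its relatives GstD5 (-1.34 ± 0.06) and GstD7 (-1.24 ± 0.05) were lower. Within the GstE group 5 of 10 were higher and 1 lower, and within GstD 3 were higher and 3 lower of 7. Over all genes the shares were 26.9% higher and 22.2% lower. The GstE and GstD genes lie in clusters of close paralogues, between which probes can share signal. Among P450 genes Cyp12e1 (1.48 ± 0.06) was higher and Cyp6a8 (-1.55 ± 0.14) and Cyp4ac1 (-0.84 ± 0.06) were lower. Of 8 measured Cyp6 genes, 6 were higher and 1 was lower, against 26.9% and 22.2% of all genes.

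In the ecdysone response, which a steroid hormone drives at moults, 4 of 7 measured genes were higher and none lower (57.1% higher, against 26.9% of all genes; median 0.25). They were the coactivator tai (0.53 ± 0.07), the receptor EcR (0.38 ± 0.09), br (0.32 ± 0.08) and ftz-f1 (0.25 ± 0.06), the last of which was not past the threshold when its probe sets were averaged. In cAMP signalling 2 genes were higher and 2 lower of 6 (33.3% higher and 33.3% lower, against 26.9% and 22.2% of all genes), with 1 higher without the Cdk8 1 array. Epac, a cAMP-driven exchange factor, lay between 6.16 and 7.06 in Med12/Med13 cells, against 5.20 to 5.33 in Cdk8/CycC cells and 4.43 to 5.29 in controls (difference 1.43 ± 0.09). The adenylyl cyclase Ac76E lay between 8.46 and 8.58 in Med12/Med13 cells, against 9.41 to 9.54 in Cdk8/CycC cells and 8.68 to 8.89 in controls, on opposite sides of controls (difference -0.95 ± 0.03). A second cyclase, rut, was lower (-0.46 ± 0.06).

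Smaller groups were mixed. Among gap junction genes, Inx3 (0.36 ± 0.07) was higher with ogre, 2 of 4 measured (50.0% higher, against 26.9% of all genes). Of 16 actin regulators, 6 were lower and 3 higher (18.8% higher and 37.5% lower, against 26.9% and 22.2% of all genes; 5 were higher after quantile normalization), and moesin (Moe, -0.21 ± 0.04) was lower with sn. Of 7 neprilysin-like peptidase genes, 5 were higher and 2 lower (71.4% higher and 28.6% lower, against 26.9% and 22.2% of all genes), including Nepl9 (0.97 ± 0.07, higher) and Nepl4 (-0.63 ± 0.05, lower). In sugar storage, trehalase (Treh, 0.62 ± 0.06) and Pepck1 (0.39 ± 0.07) were higher and glycogen phosphorylase (Glyp, -0.30 ± 0.05) was lower. Of the apoptosis genes, the apoptosome component Dark (-0.63 ± 0.05) and Debcl (-0.28 ± 0.04) were lower and the caspase Dronc (0.23 ± 0.03) was higher. For RNA interference genes, 2 of 12 were higher and 5 lower (16.7% higher and 41.7% lower, against 26.9% and 22.2% of all genes), and loqs (0.29 ± 0.05) and Dcr-2 (0.20 ± 0.04), which handle double-stranded RNA, were higher. The count of lower ones was 2 without the Cdk8 2 array and 3 without any 1 of 7 other arrays.

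Large housekeeping groups differed little. The median over 22 core Mediator genes was -0.01, with 5 higher and 4 lower (22.7% higher and 18.2% lower, against 26.9% and 22.2% of all genes). None of those differences exceeded 0.23 log2, the value for MED21 (0.23 ± 0.04). Of 35 cytosolic ribosomal protein genes, 2 were lower and none higher (5.71% lower, against 22.2% of all genes). Both are alternative or related forms, RpS19b (-1.32 ± 0.07) and RpLP0-like (-0.37 ± 0.05). Of 69 mitochondrial ribosomal protein genes, 7 were higher and 16 lower (10.1% higher and 23.2% lower, against 26.9% and 22.2% of all genes), so the lower share is about that of all genes. Of 51 respiratory chain genes, 9 were higher and 1 was lower (17.6% higher and 1.96% lower, against 26.9% and 22.2% of all genes), which became 15 higher and 3 lower after quantile normalization. Of 27 proteasome genes, 6 were lower and none higher (22.2% lower, against 22.2% of all genes). With arrays centred on their medians 10 were lower, and after quantile normalization 2 were lower and 1 higher. Single arrays moved these small counts: 2 proteasome genes were lower without the Cdk8 2, Med12 2 or Med13 1 array, 1 core Mediator gene was lower without Cdk8 1, and 3 were higher without Cdk8 2 or Med12 2. Among other transcription kinases and their cyclins, Cdk7 (0.19 ± 0.05) and CycH (0.13 ± 0.04), partners in TFIIH, were higher. No gene of 3 measured in the Wnt pathway passed the test, against 49.1% of all genes. The other 13 of the 16 listed were not named on the arrays, so the pathway could not be judged. In the Notch pathway, of 5 measured genes the protease kuz (-0.53 ± 0.06) was lower. The glycosyltransferase fng (0.34 ± 0.14) was higher in a call lost without any 1 of 16 arrays. Of 4 JAK/STAT genes, 1 was higher and 2 lower (25% and 50%, against 26.9% and 22.2% of all genes). Their differences were at most 0.19, and none of these calls held as each array was left out in turn. Of 9 fatty acid synthesis genes, 1 was higher and 2 lower (11.1% and 22.2%, against 26.9% and 22.2% of all genes). Without the Med13 2 array 2 of them were higher.

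**Figure D5:**
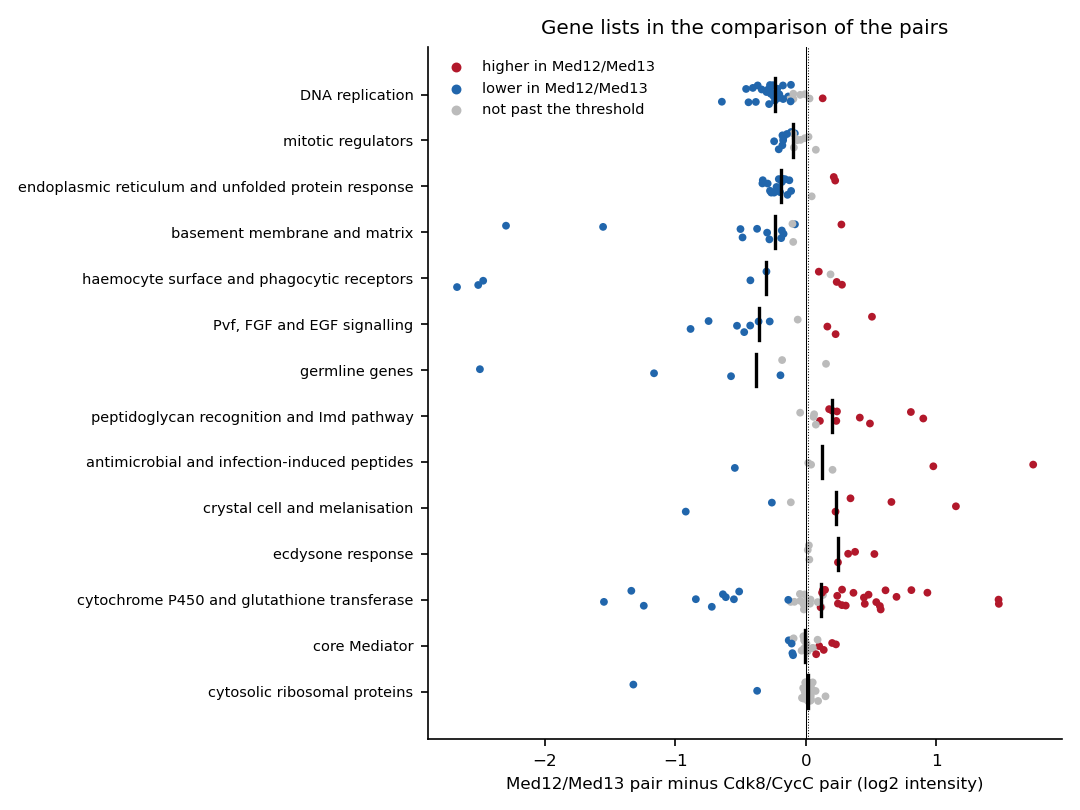
Difference between the pairs (Med12/Med13 minus Cdk8/CycC, log2 intensity) for every measured gene of 14 lists; points are genes, coloured by the call, and vertical bars are list medians. Replication, endoplasmic reticulum and basement membrane genes lie mostly left of 0, Imd and ecdysone genes right of it, and core Mediator and cytosolic ribosomal genes around it.

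The few differences within pairs show where the pairs are not uniform. Beside kto and skd themselves, Med12 cells had more Gyg, the glycogen primer (means 4.90 in Med12 cells and 4.11 in Med13 cells), and more Ypel (7.09 and 6.41) than Med13 cells. They had less Obp56h (6.39 and 7.32) and less fbp, the gluconeogenic fructose bisphosphatase (5.54 and 6.21). The limma adjusted p of these 4 genes lay between 0.00250 and 0.0123. Between Cdk8 and CycC cells, beside the targets, CG9164 (4.39 in Cdk8 cells and 3.54 in CycC cells) and the cAMP phosphodiesterase dnc (7.64 and 6.98) were higher in Cdk8 cells and CG10359 (4.78 and 5.33) was lower, with adjusted p between 0.0122 and 0.0491. Of the 101 genes that differed at least 2-fold between the pairs, 9 also differed between Med12 and Med13, among them the dsRNA target kto. Over all genes, 0.872% differed between Med12 and Med13, so that share was higher among the 101.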

How the data were processed

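Expression was measured on 22 Affymetrix Drosophila arrays. The deposited intensity values are linear, 1 per probe set and array, and were made with GCRMA, per the submitters' processing notes; version, settings and annotation build are not given in the sources used here. GCRMA corrects background from probe base composition and normalizes arrays to one another, so it compresses changes of weak transcripts and hides uniform ones. Precision is limited by how many arrays each group has.

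The log2 of each intensity was taken from the authors' deposited table. Of 18952 probe sets, 183 were hybridisation controls, 13647 had 1 gene symbol, 402 several and 4720 none here; 13544 symbols were matched by gene identifier to RefSeq Release 6 and 103 kept the annotation's name. A gene needed a log2 value of at least 4 (intensity 16) on at least 2 arrays and was represented by its brightest probe set, which left 5961 genes, 329 of them with several probe sets. Group means were estimated in 1 linear model over the 22 arrays (lmFit and eBayes of limma 3.58.1, under R 4.3.3). In this model controls entered the contrast only through the shared spread. The floor and the choice of probe set also used the control arrays. With the floor over the 14 knockdown arrays, 5942 genes were tested and 2930 differed. The fit was checked on simulated data. The contrast was the mean of the Med12 and Med13 groups minus that of the Cdk8 and CycC groups, two-sided, with Benjamini-Hochberg adjustment over all genes and a threshold of 0.05.

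The genes named are the 12 largest differences each way among those whose arrays do not overlap, the 6 largest each way on opposite sides of controls, the 3 largest each way within each pair, the module genes, and the 4 members of each list with the smallest p. Further list members are named after their values were seen. The comparison, gene lists and rules were chosen with earlier results of these data known. Replicate numbers were not used as pairs, since the labels tie them to no shared culture or day and same-numbered arrays of the 2 pairs did not all deviate together. No sequence was used here.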

Additional observations from a re-analysis of the deposited data

Results flagged for a closer look

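Dixon's criterion was applied to each group of 4 arrays for 31 of the genes named, 155 groups in all, and 7 of them (4.52%) held an array set apart from the other 3. Chance gives about 1 in 20. CG30148 read 7.67 on the Med12 3 array, with the nearest Med12 array at 8.03, which still left it above all Cdk8/CycC arrays. CycC read 4.83 on the CycC 3 array, with the nearest at 4.25, the least depleted of its group. The other 5 were control arrays: CG5001 at 5.14, CG9098 at 3.13, sn at 8.66 and kto at 8.70 on GFP arrays, and mlt at 3.15 on a Luc array. Control means do not enter the comparison, but control arrays enter the shared spread behind its SE and p-values.

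Of the genes with the largest differences between the pairs, 4 also differed within one of them. Obp56h was lower in Med12 than in Med13 cells by a log2 difference of -0.93 (means 6.39 and 7.32, limma adjusted p = 0.0123). CG8501 was also lower in Med12 cells, with a difference of -0.41 (7.59 and 8.00, adjusted p = 0.0123). CG9098 was higher in Med12 cells by 0.47 (5.08 and 4.61, adjusted p = 0.00818). CG10359 was lower in Cdk8 than in CycC cells, with a difference of -0.55 (4.78 and 5.33, adjusted p = 0.0122). In the comparison of the pairs these 4 stayed past the threshold under all 37 alternatives run, apart from CG9098 under the floor of 6, which left it out.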

How the results depend on the processing

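The count of genes that differ between the pairs, 2928, lay between 2462 and 3012 as each array was left out, with 1357 to 1644 higher and 1104 to 1368 lower, and the 2-fold count between 99 and 103. The count past the threshold in all 4 single comparisons, 1222, ranged from 782 to 1268, with the lowest value without the Cdk8 1 array, and was 794 at an adjusted p of 0.01. The count on opposite sides of controls, 187, ranged from 144 to 194 and was 113 at that threshold. Other alternatives kept these counts within 1.5 times, among them 2725 genes with Med12 alone, 2226 with Med13 alone and 2652 with CycC alone. With the replicate number as a block the counts were 3010, 100 at 2-fold, 1266 and 211. Correlations of same-numbered deviations ran from -0.24 to 0.44, 25 of 50 over 0.1. The 2 Cdk8 arrays deviate from their mean as mirror images, so their correlations are of opposite sign, the -0.24 among them. The 25 include no Cdk8 array. They include all 4 for Med13 with GFP but never all for a Med12 or Med13 group with a Cdk8 or CycC group. In all, 12 of 22 arrays correlated best with their own number, a hint from the data and not the design. The share of calls that were higher was 54.7%, against 48.0% with arrays centred on their medians and 49.2% after quantile normalization. Of 6167 values of 167 named genes under 37 alternatives, 119 lost the call and 41 gained it. The 6006 counted as unchanged kept the call or its absence. Values with no call in the main fit or the alternative were counted there whatever their direction. The 1 reversal that involved a call was skd, at -0.24 with Med13 alone, against 0.34 with Med12 alone. Med13 alone also left 2 mitochondrial ribosomal protein genes lower in place of 16, and no proteasome or core Mediator gene lower in place of 6 and 4; the causes were not tested. The count over all 4 single comparisons has no value with 1 group alone, and the count against controls has none without control arrays.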
